A study of Mus musculus with 2 samples.

Results

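The Dlk1-Dio3 region is a stretch of mouse chromosome 12 that carries one of the large miRNA clusters of the genome, and its miRNAs were examined in cultured smooth muscle cells from the pulmonary artery, which contract to set the width of the lung's arteries. The members were the 46 miRBase mature-sequence accessions on a list that assigns them to the region, covering miR-127, miR-134, miR-136, miR-154, miR-299, miR-300, miR-323, miR-329, miR-337, miR-341, miR-369, miR-370, miR-376, miR-377, miR-379, miR-380, miR-381, miR-382, miR-409, miR-410, miR-411, miR-412, miR-431, miR-433, miR-434, miR-485, miR-487b, miR-494, miR-495, miR-496, miR-539, miR-540, miR-541, miR-543, miR-665, miR-666, miR-667, miR-668, miR-673, miR-679 and miR-758. All 46 accessions were found among the 739 features of the deposited array table, 0 were absent, and none shared a feature with another accession. The rule uses genome position and no measured value.

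The region is imprinted, which means that the parental copies of a gene are not used alike. Its protein-coding genes Dlk1, Rtl1 and Dio3 are expressed from the paternally inherited chromosome, and its non-coding RNAs Meg3, Rian and Mirg from the maternally inherited one. The miRNAs are cut from the long non-coding transcripts, so that many hairpins can come from one primary transcript, and they are best known from the embryo, the placenta and the brain. A mature miRNA pairs with messenger RNAs mainly through its seed, bases 2 to 8.

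The study had 2 samples of male mice on the C57BL/6 background, 1 labelled wild-type and 1 labelled NOX1 deficient. NOX1 is a catalytic subunit of the NADPH oxidases, the membrane enzymes that make superoxide. Each sample came from 3 mice, labelled WT for the wild-type and KO (knockout) for the NOX1 deficient sample. The sources used here do not say whether cells or RNA were pooled or how the knockout was made. Cells of both groups were at passage 3, seeded into 12-well plates with 150000 cells to a well, and held for 24 hours in DMEM/F-12 with 10% FBS. In what follows the wild-type intensity is always given first. The label protocol names the dye Hy5 and a miRCURY LNA array labelling kit, LNA being a modified nucleotide that strengthens pairing of short probes. With 1 array per genotype there is no replicate, so no difference between the genotypes has an error of its own and none was tested. In such cultures fewer cells of a type and less RNA per cell cannot be told apart.

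The 41 miRNA names were all found in RefSeq's table of mouse miRNAs (build GRCm38.p6), at 43 loci on the plus strand and 1 on the minus strand, Mir299b. The 43 plus-strand loci span 171.8 kb, chr12:109571990-109743795. The widest gap, 90.7 kb between Mir370 and Mir379, separates a first group of 11 loci over 46.3 kb from a second group of 32 loci over 34.7 kb. Of the first group, 9 loci from Mir673 to Mir136 lie inside the annotated interval of Rtl1, a retrotransposon-derived gene, and Mir341 and Mir370 lie inside that of Rian. Shared position alone does not show which transcript a hairpin comes from, and the strands of these genes were not compared. Of the second group, 8 loci from Mir154 to Mir410 lie inside Mirg, and the other 24 lie in none of the 6 genes named here. The second group is thus the denser, with more loci in a shorter stretch.

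**Figure D1:**
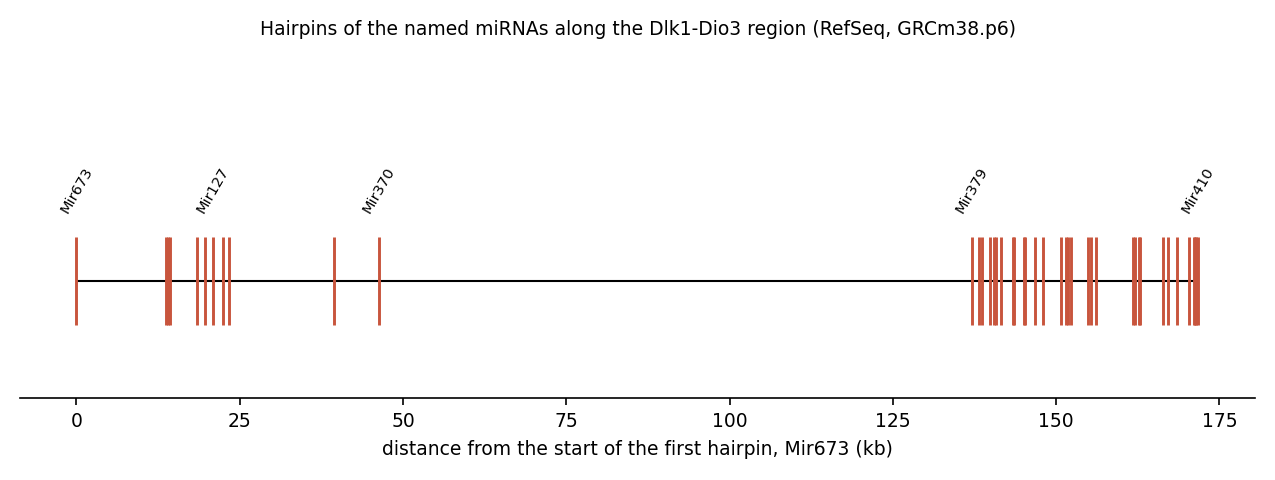
Each bar is 1 of the 43 plus-strand miRNA loci of the named miRNAs, placed by its distance in kb from the start of Mir673 (RefSeq, GRCm38.p6). A group of 11 loci ending at Mir370 and a group of 32 loci from Mir379 to Mir410 are separated by 90.7 kb.

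Pairs of mature sequences within 3 edits of each other are shown because hybridization arrays can read near-identical miRNAs as one. Pairs that share a seed are shown with them. The table holds 82 mature sequences for the plus-strand loci, 19 to 26 bases long with a median of 22, and they carry 79 different seeds. Each of the 3 shared seeds was held by a pair of miRNAs, and among all 1679 mouse mature names of the table no other miRNA had any of these 3 seeds. In the lines below the seed is in capitals and each sequence runs 5′ to 3′.
mmu-miR-376c-5p: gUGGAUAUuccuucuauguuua
mmu-miR-376b-5p: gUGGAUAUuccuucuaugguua
mmu-miR-379-3p: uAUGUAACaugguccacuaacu
mmu-miR-411-3p: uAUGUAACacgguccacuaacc
mmu-miR-494-5p: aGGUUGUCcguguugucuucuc
mmu-miR-410-5p: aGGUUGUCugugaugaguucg
mmu-miR-300-3p: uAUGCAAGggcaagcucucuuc
mmu-miR-381-3p: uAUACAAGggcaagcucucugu
mmu-miR-376b-3p: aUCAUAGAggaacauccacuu
mmu-miR-376a-3p: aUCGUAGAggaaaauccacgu

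The first pair differed by 1 edit, a substitution, insertion or deletion, and lies at chr12:109722733-109722754 and chr12:109723471-109723492. The second pair differed by 2 edits and lies at chr12:109709102-109709123 and chr12:109710225-109710246. The third pair, at chr12:109715334-109715355 and chr12:109743729-109743749, shared its seed but was more than 5 edits apart. The miR-300-3p and miR-381-3p sequences, at chr12:109724363-109724384 and chr12:109726870-109726891, were 3 edits apart with different seeds. So were miR-376b-3p at chr12:109723508-109723528 and miR-376a-3p at chr12:109723824-109723844. Over all 82 sequences 4 pairs lay within 3 edits, all of them shown above. For Mir376c, Mir487b, Mir539 and Mir485 only 1 mature sequence was held, so any other of theirs was not compared. Those of the minus-strand Mir299b were left out. Within 5 edits lay 11 pairs, among them miR-154-3p with miR-369-3p and miR-543-3p with miR-495-3p, each 4 edits apart and not shown. GC content ran from 23.8% to 76.2% with a median of 50%, beside 52.2% over all mouse mature names of the table. Nothing in the sources used here pairs a single accession with a miRNA name. The values below are therefore given by accession. The 82 sequences are more than the 46 member accessions, so they describe the region and a sequence shown may not be a member. Lists of smooth muscle and other cell markers, written by name, could not be read for the same reason, so the labelled cell type was not checked.

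Most members were listed with an intensity in both genotypes, though whether it exceeded background is not known. Of the 46 members, 44 had an intensity in wild-type cells, 43 had one in NOX1 deficient cells, and 43 (93.5%) were listed on both arrays. Of all features 472 of 739 (63.9%) were listed on both, and of the 693 that are not members 429 (61.9%). Without names for the accessions, these may include other mature sequences of the region's hairpins. MIMAT0003186 and MIMAT0003737 were listed as null on both arrays. MIMAT0003889 read 1.0 units in wild-type cells and was null in NOX1 deficient cells, and that one value lay close to the lowest listed on the wild-type array, 0.96 units. The table does not say whether a null is a value under a limit or a rejected spot, so no fold is given for it. No member was listed on the NOX1 deficient array alone. Over all 739 features 74 were listed on the wild-type array alone, 53 on the NOX1 deficient array alone and 140 on neither.

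Summed over the members, intensities came to 968.6 units for wild-type and 950.9 for NOX1 deficient cells, a ratio of 0.982. The sum over all 739 features, 114672 and 112103 units, had a ratio of 0.978. The brightest feature, which is not a member, held 51870.1 and 51058.9 of these units. The next brightest, also not a member, held 15010.6 and 13525.1, so the total and its ratio rest largely on few features. The members thus held nearly the same share of the summed intensity in the 2 genotypes, 0.845% and 0.848%. These shares depend on probe affinity and labelling and do not measure abundance. In both genotypes 10 members carried most of the region's signal, 67.1% in wild-type and 68.1% in NOX1 deficient cells, and these were the same 10 accessions on the 2 arrays.

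Listed member intensities ran from 1.0 to 118.78 units in wild-type cells and from 1.19 to 122.39 units in NOX1 deficient cells. In wild-type cells 2 members read at least 100 units, 21 read from 10 to below 100, 14 read from 2 to below 10 and 7 read below 2. The numbers in NOX1 deficient cells were 1, 21, 14 and 7. Of the 43 members on both arrays, 30 belonged to the 236 brighter of the 472 features (mean of both log2 intensities at or above the median, a geometric mean of 4.44 units), and 15 belonged to the 118 brightest. That is 69.8% and 34.9% of the members, against 48.0% and 24.0% of the other features on both arrays. Small intensities give unstable ratios: the SD of the log2 difference over all features was 0.18 among the 118 brightest and 0.45 among the 118 dimmest.

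**Figure D2:**
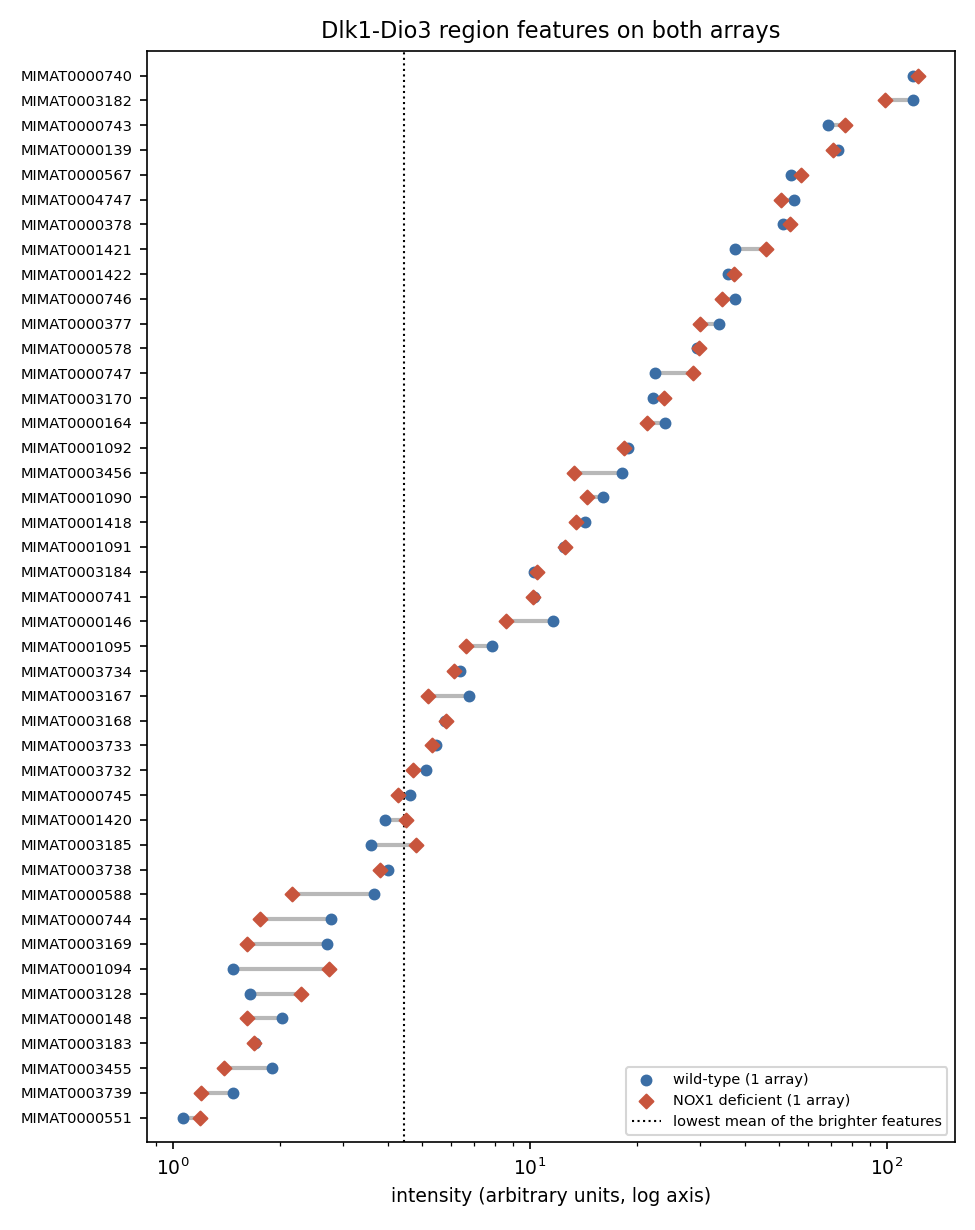
Intensity in arbitrary units (log axis) of the 43 members listed on both arrays, 1 array per genotype, ordered by their mean; the dotted line is the lowest mean of the brighter features, 4.44 units. The genotypes lie close together for the 30 members whose mean is at or right of the line and further apart for several of the 13 to its left.

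No brighter member differed by 1.5-fold or more between the genotypes. Of the 30, 0 were higher and 0 were lower by that factor without NOX1. Among all 236 brighter features 3 (1.27%) were higher and 4 (1.69%) lower by that much, so 0 of 30 is near the background. The log2 differences, NOX1 deficient minus wild-type, ran from -0.45 to 0.35 with a median of -0.044 and an SD across members of 0.18. Over all brighter features the median was 0.014 and the SD 0.24. Within 1.25-fold lay 26 of the 30 members (86.7%) and 197 of the 236 brighter features (83.5%).

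The 2 members with the highest signal were MIMAT0000740 and MIMAT0003182. MIMAT0000740 read 118.62 units (wild-type) against 122.39 units (NOX1 deficient), a log2 difference of 0.045. MIMAT0003182 read 118.78 and 98.62 units (log2 difference -0.27, a wild-type over NOX1 deficient ratio of 1.2). The first was nearly alike on the arrays and the second was the only one of the 15 brightest members to differ downwards by more than 0.2 on the log2 scale.

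Next in brightness came a group between 50.43 and 76.20 units. MIMAT0000743 read 68.69 units (wild-type) against 76.20 units (NOX1 deficient), a log2 difference of 0.15. MIMAT0000139 read 72.92 and 70.69 units (log2 difference -0.045). MIMAT0000567 read 54.03 and 57.51 units (log2 difference 0.090). All of these were within 1.25-fold, as were the next 2. MIMAT0004747 read 54.88 and 50.43 units (log2 difference -0.12), and MIMAT0000378 read 51.24 and 53.45 units (log2 difference 0.061).

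Of the members between 20 and 50 units, 2 showed the largest positive differences among the brighter members. MIMAT0000747 read 22.45 units (wild-type) against 28.58 units (NOX1 deficient), a ratio of 1.27 (log2 difference 0.35). MIMAT0001421 read 37.49 and 46.05 units, a ratio of 1.23 (log2 difference 0.30). Both lay inside the range of the 118 brightest features, -0.45 to 0.56.

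The other 6 members of that range differed less. MIMAT0001422 read 36.01 and 37.34 units (log2 difference 0.052), MIMAT0000578 read 29.48 and 29.86 units (0.018), and MIMAT0003170 read 22.14 and 23.76 units (0.10). These 3 were slightly higher in NOX1 deficient cells, and the following 3 slightly lower. MIMAT0000746 read 37.47 and 34.53 units (log2 difference -0.12), MIMAT0000377 read 33.86 and 29.93 units (-0.18), and MIMAT0000164 read 23.88 and 21.36 units (-0.16).

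The 15 members from 4.44 to 18.6 units leaned towards lower values in NOX1 deficient cells. Of these, 12 were lower and 3 higher, with a median log2 difference of -0.083, while all 118 features of that brightness had 63 lower, 55 higher and a median of -0.027. The 15 brightest members had 6 lower, 9 higher and a median of 0.045, beside 51, 67 and 0.028 over the 118 brightest features. Setting the array medians equal (median centring) adds the same amount to every feature. It gave 7 lower, 8 higher and a median of 0.013 for these 15 members, beside 49, 69 and 0.070 over the 118 features. Quantile normalization gave 10 lower, 4 higher and 1 at 0, beside 56, 59 and 3 over the 118. The loess curve gave 11 lower and 4 higher, beside 60 and 58. No error can be attached to any of these counts, and the division by brightness is a description.

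The lowest ratios of the brighter members were found in this group. MIMAT0003456 read 18.11 units (wild-type) against 13.26 units (NOX1 deficient), 1.37-fold lower (log2 difference -0.45). MIMAT0000146 read 11.61 and 8.56 units, 1.36-fold lower (log2 difference -0.44). MIMAT0003167 read 6.74 and 5.20 units, 1.30-fold lower (log2 difference -0.37). The genotypes of these 3 members differed by less than the 1.5-fold threshold, and features at this brightness that are not members ran from -0.92 to 0.78.

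The remaining 12 of the group lay within 1.25-fold. MIMAT0001092 read 18.81 and 18.40 units (log2 difference -0.032), MIMAT0001090 read 16.0 and 14.49 units (-0.14), and MIMAT0001418 read 14.24 and 13.44 units (-0.083). MIMAT0001091 read 12.44 and 12.57 units (log2 difference 0.015), MIMAT0003184 read 10.27 and 10.51 units (0.033), and MIMAT0000741 read 10.28 and 10.19 units (-0.013). These last 3 read nearly alike on the 2 arrays. Below 8 units, MIMAT0001095 read 7.86 and 6.64 units (log2 difference -0.24), MIMAT0003734 read 6.36 and 6.12 units (-0.055), and MIMAT0003168 read 5.79 and 5.81 units (0.0050). MIMAT0003733 read 5.47 and 5.31 units (log2 difference -0.043), MIMAT0003732 read 5.11 and 4.72 units (-0.11), and MIMAT0000745 read 4.62 and 4.27 units (-0.11). MIMAT0003168 had the smallest difference of all brighter members.

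**Figure D3:**
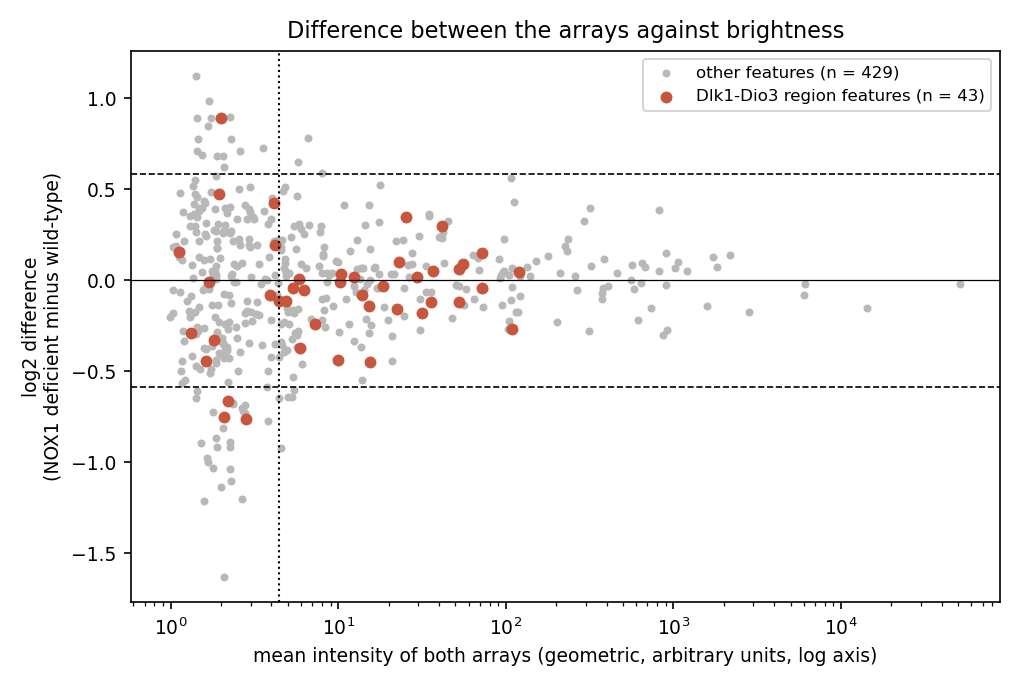
Log2 difference (NOX1 deficient minus wild-type) against the geometric mean intensity of both arrays (log axis) for 43 region features and 429 other features; dashed lines mark 1.5-fold, the dotted line 4.44 units. The region features lie within the cloud of the others, inside 1.5-fold to the right of the dotted line and spread from -0.76 to 0.89 to its left.

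Larger ratios appeared among the 13 dimmer members, where intensities were between 1.07 and 4.81 units. By a factor of 1.5 or more, 1 was higher and 3 were lower, and none reached 2-fold. Over all 236 dimmer features, 6.78% were higher and 12.7% lower by 1.5-fold, and 1 feature was higher and 8 lower by 2-fold. MIMAT0001094 read 1.47 units (wild-type) against 2.73 units (NOX1 deficient), a ratio of 1.86 (log2 difference 0.89). Its wild-type value lay within 1 unit of the lowest listed on that array.

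The 3 lower ones were of the same faintness. MIMAT0000588 read 3.67 and 2.16 units, 1.70-fold lower (log2 difference -0.76). MIMAT0003169 read 2.71 and 1.61 units, 1.68-fold lower (log2 difference -0.75). MIMAT0000744 read 2.77 and 1.75 units, 1.58-fold lower (log2 difference -0.66), and with the array medians set equal this last difference became -0.57, inside 1.5-fold. With 50 units added before the log2, a step that shrinks the ratios of faint features, all 4 of these dimmer members lay inside 1.5-fold, at -0.041 (MIMAT0000588), -0.030 (MIMAT0003169), -0.028 (MIMAT0000744) and 0.035 (MIMAT0001094). At intensities this faint, adding 50 units could not have left a ratio past 1.5-fold. In each of the 3 lower members the gap between the genotypes was under 2 units. The other 9 dimmer members, MIMAT0001420, MIMAT0003185, MIMAT0003738, MIMAT0003128, MIMAT0000148, MIMAT0003183, MIMAT0003455, MIMAT0003739 and MIMAT0000551, had log2 differences from -0.44 to 0.48. Over the 13 the median was -0.081 and the SD 0.51, beside -0.012 and 0.47 over all dimmer features.

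With the deposited values 12 of the 30 brighter members were higher and 18 lower, while all brighter features had 122 higher and 114 lower. The array medians over the 472 shared features differed by -0.097 on the log2 scale, being 4.55 units for wild-type and 4.26 units for NOX1 deficient cells. Setting them equal shifts every feature by that amount, and the counts became 18 higher and 12 lower for the members and 156 and 80 for all brighter features, with medians of 0.053 and 0.11. Quantile normalization gave 12 higher, 16 lower and 2 at 0, with a median of -0.018, and a loess curve on brightness gave 13 and 17, with a median of -0.030. The medians of all brighter features were 0.014 as deposited, 0.11 after median centring, 0 after quantile normalization and 0.0053 after loess. The members' median lay below these under each of the 4 scalings, but among the 15 brightest members it lay above that of the 118 brightest features each time. Those values were 0.045 against 0.028 as deposited, 0.14 against 0.12 after median centring, 0.034 against 0 after quantile normalization and 0.023 against 0.014 after loess.

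**Figure D4:**
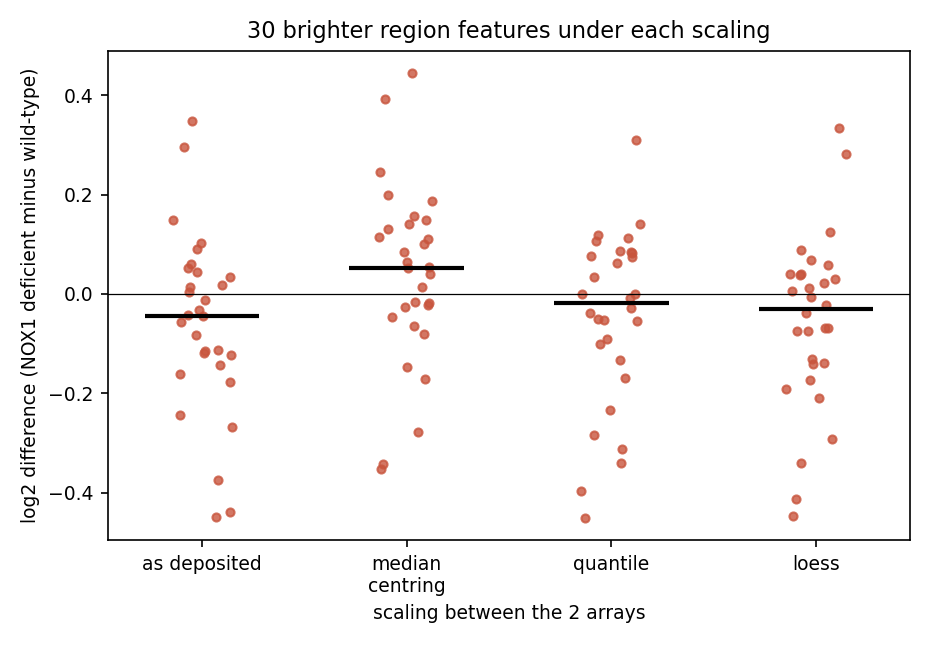
Log2 difference (NOX1 deficient minus wild-type) of the 30 brighter members, 1 point per member, as deposited and after median centring, quantile normalization or a loess curve on brightness; the black line is the median. The medians are -0.044, 0.053, -0.018 and -0.030, and no point reaches 1.5-fold.

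Across the 43 members on both arrays the log2 intensities of the 2 genotypes correlated with Pearson r = 0.987 and Spearman rho = 0.985, and across all 472 features with 0.991 and 0.952. These correlations are across features, which share the same 2 arrays and are not independent replicates.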

How the data were processed

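Total RNA of 2 samples was measured on 1 array each. The authors deposited 1 intensity for each feature of each array, and the values show that the scale is linear. The sources used here give no background correction, normalization, scanner or meaning of null. The number of arrays limits the precision. From these intensities log2 values without a pseudocount were taken, and the log2 difference computed for the 472 features listed on both arrays. Features with a mean log2 intensity at or above the median were called brighter. The threshold was 1.5-fold, also tried at 2-fold. All members listed on both arrays and brighter are named with values, as are dimmer ones past the threshold, those listed on 1 array and those on none. Members, lists and settings were chosen with earlier results of these data known. Lists written by miRNA name (other imprinted loci, cell type markers, groups and arms within the region) were not evaluated, since no table used here pairs accessions with names. The alternatives were median centring, quantile normalization, loess (span 0.4), other brightness filters, log2(intensity + 50), nulls at the lowest value and single-accession features. The counting code was tested on simulated data. Sequences and loci came from RefSeq (GRCm38.p6), with hairpins matched by symbol. Python 3.11.15, numpy 2.4.6, pandas 2.3.3, statsmodels 0.14.6 and matplotlib 3.10.9 were used.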

Additional observations from a re-analysis of the deposited data

How the results depend on the processing

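The counts of 0 brighter members at least 1.5-fold higher and 0 lower were also found after median centring, quantile normalization and loess, in the 118 brightest features, with log2(intensity + 50), without features of several accessions and at 2-fold. Over all brighter features the counts were 3 and 4 as deposited, 7 and 1 after median centring, 2 and 4 after quantile normalization, and 3 and 3 after loess. They were 0 and 0 in the brightest, with log2(intensity + 50) and at 2-fold. The 118 brightest, log2(intensity + 50) and 2-fold can only lower a count, and no member shares a feature, so these settings could not change the members' 0. Without the brightness filter, nulls left out or set to the lowest value, they became 1 and 3, from members below 4.44 units, beside 19 and 34 of 472 features without the filter and 34 and 60 of 739 with nulls filled. The median log2 difference of -0.044 became 0.053 after median centring and 0.045 among the 15 brightest members, each opposite in sign. It was -0.018 after quantile normalization, -0.030 after loess, -0.045 without the filter and -0.0074 with log2(intensity + 50). With nulls at the lowest value it was -0.046, which is the log2 ratio of the 2 filled-in values and no measured difference. Of the 43 members listed on both arrays, 34 read at least 2 units on both. The same count was not made over all features, so it has no background beside it. No paired analysis was possible because only 1 array stands for each group, and no replicate could be left out. No background values were used here, so signal over background is unknown.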
